A study of Mus musculus with 2 samples.

Results

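Claudins are membrane-spanning proteins that join neighbouring epithelial cells at the tight junction and set which ions and solutes pass between them. Occludin and the junctional adhesion molecule A sit in the same belt, and the scaffold ZO-1 ties it to the actin cytoskeleton. In the lung the alveolar and airway epithelium carry different claudins, and claudin-18 is best known from the alveoli. The genes described here are 9 genes chosen by their symbols: the claudin genes Cldn1, Cldn3, Cldn4, Cldn7, Cldn10 and Cldn18, Ocln for occludin, Tjp1 for ZO-1 and F11r for the junctional adhesion molecule A. All 9 were among the 28692 genes in the count tables.

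The study compared lung epithelium of adult C57BL/6 mice after injury by an agent that the labels call NAPH with lung epithelium labelled Control. Cells were isolated by flow cytometry and profiled with a droplet kit that counts 3′ ends of transcripts by unique molecular identifier (UMI). There was 1 NAPH library and 1 Control library, so no difference between them has a replicate check, and no p-value is given. No source used here gives the dose, the interval after injury or how many mice were used. The NAPH library kept 3572 cells with a median of 9417 UMIs per barcode, and the Control library kept 3211 cells with a median of 8303.5. The libraries shared 14 cell barcodes.

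Cells were grouped by marker UMIs per 10000 UMIs of the cell. Type II alveolar (AT2) cells had at least 500 of Sftpc, the gene of surfactant protein C. They were divided by Areg and Sprr1a, a growth factor and a cornified envelope gene: 154 NAPH and 27 Control AT2 cells had at least 5 of both summed, and 2345 NAPH and 1763 Control AT2 cells had less. Secretory cells (at least 1000 of Scgb1a1, the club cell secretoglobin) numbered 121 in NAPH and 613 in Control. Goblet-like cells (at least 150 of Scgb3a1 and Bpifb1) numbered 72 in NAPH and 138 in Control, and ciliated cells (at least 10 of Foxj1, Ccdc153 and Tmem212) numbered 198 in NAPH and 187 in Control. Cells outside these gates with at least 20 of 5 leukocyte genes numbered 413 in NAPH and 392 in Control. That gate fixed the level of its own genes, which summed to 3923 CPM in NAPH and 4078 CPM in Control. Levels below are UMIs of a gene per 1000000 UMIs summed over a group of cells (CPM), with exact Poisson intervals of 95% that cover counting error only.

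Cldn3 was the most widely shared claudin of the epithelium. It encodes a barrier-forming claudin and was found in 94.4% to 98.99% of the cells of every NAPH epithelial group and in 96.4% to 100% of those of every Control group. Its level in the Areg/Sprr1a AT2 cells was 827 CPM in NAPH and 908 CPM in Control. The other AT2 cells had 659 CPM in NAPH and 546 CPM in Control, and ciliated cells had 720 CPM in NAPH and 763 CPM in Control. Secretory cells had 551 CPM in NAPH and 370 CPM in Control, and goblet-like cells had the lowest epithelial level, 366 CPM in NAPH and 283 CPM in Control. In leukocytes the level was 15.4 CPM in NAPH and 11.5 CPM in Control, with a UMI in 10.9% of NAPH and 9.44% of Control cells, at median depths of 7594 UMIs in NAPH and 7792.5 UMIs in Control. Every pair of neighbours in the order of Cldn3 levels had separate counting intervals in NAPH. In Control the intervals of the Areg/Sprr1a AT2 cells and the ciliated cells overlapped. The order below the first group changed when the marker genes of the gates were left out of the UMIs. Secretory cells then had 892 CPM in NAPH and 978 CPM in Control. The other AT2 cells had 836 CPM in NAPH and 732 CPM in Control, and ciliated cells had 735 CPM in NAPH and 789 CPM in Control.

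Cldn7 encodes a claudin that also lies along the lateral membrane, outside the tight junction. It was highest in ciliated cells, at 407 CPM in NAPH and 447 CPM in Control. Secretory cells had 334 CPM in NAPH and 157 CPM in Control, and goblet-like cells had 328 CPM in NAPH and 229 CPM in Control. The Areg/Sprr1a AT2 cells had 293 CPM in NAPH and 285 CPM in Control, and the other AT2 cells had 193 CPM in NAPH and 140 CPM in Control. Ciliated cells stood clear of the other groups in both libraries, while the intervals of secretory, goblet-like and Areg/Sprr1a AT2 cells ran together in NAPH.

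Cldn18 and Cldn10 divided the alveolar from the secretory cells. Cldn18 had 578 CPM in NAPH and 900 CPM in Control Areg/Sprr1a AT2 cells, and 509 CPM in NAPH and 597 CPM in Control in the other AT2 cells. Ciliated cells came next with 241 CPM in NAPH and 139 CPM in Control. Secretory cells had 49.1 CPM in NAPH and 9.61 CPM in Control, and goblet-like cells had 11.8 CPM in NAPH and 12.1 CPM in Control. Cldn10, whose product forms ion-selective pores and which is a known marker of club cells, was highest in the secretory and goblet-like cells instead. It had 481 CPM in NAPH and 453 CPM in Control secretory cells, and 277 CPM in NAPH and 189 CPM in Control goblet-like cells. In the remaining epithelial groups it stayed between 1.95 and 12.3 CPM in NAPH and between 4.13 and 17.3 CPM in Control.

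The highest level of Cldn4 was far below those of the claudins above. Its product is a sealing claudin that is known to increase in injured mouse lung. Ciliated cells had 60.4 CPM in NAPH and 9.11 CPM in Control, and Areg/Sprr1a AT2 cells had 26.0 CPM in NAPH and 20.6 CPM in Control. Secretory cells had 22.1 CPM in NAPH and 18.6 CPM in Control, and goblet-like cells had 20.8 CPM in NAPH and 22.8 CPM in Control. The other AT2 cells had only 2.08 CPM in NAPH and 0.721 CPM in Control. Leukocytes had 1 UMI in each library.

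**Figure D1:**
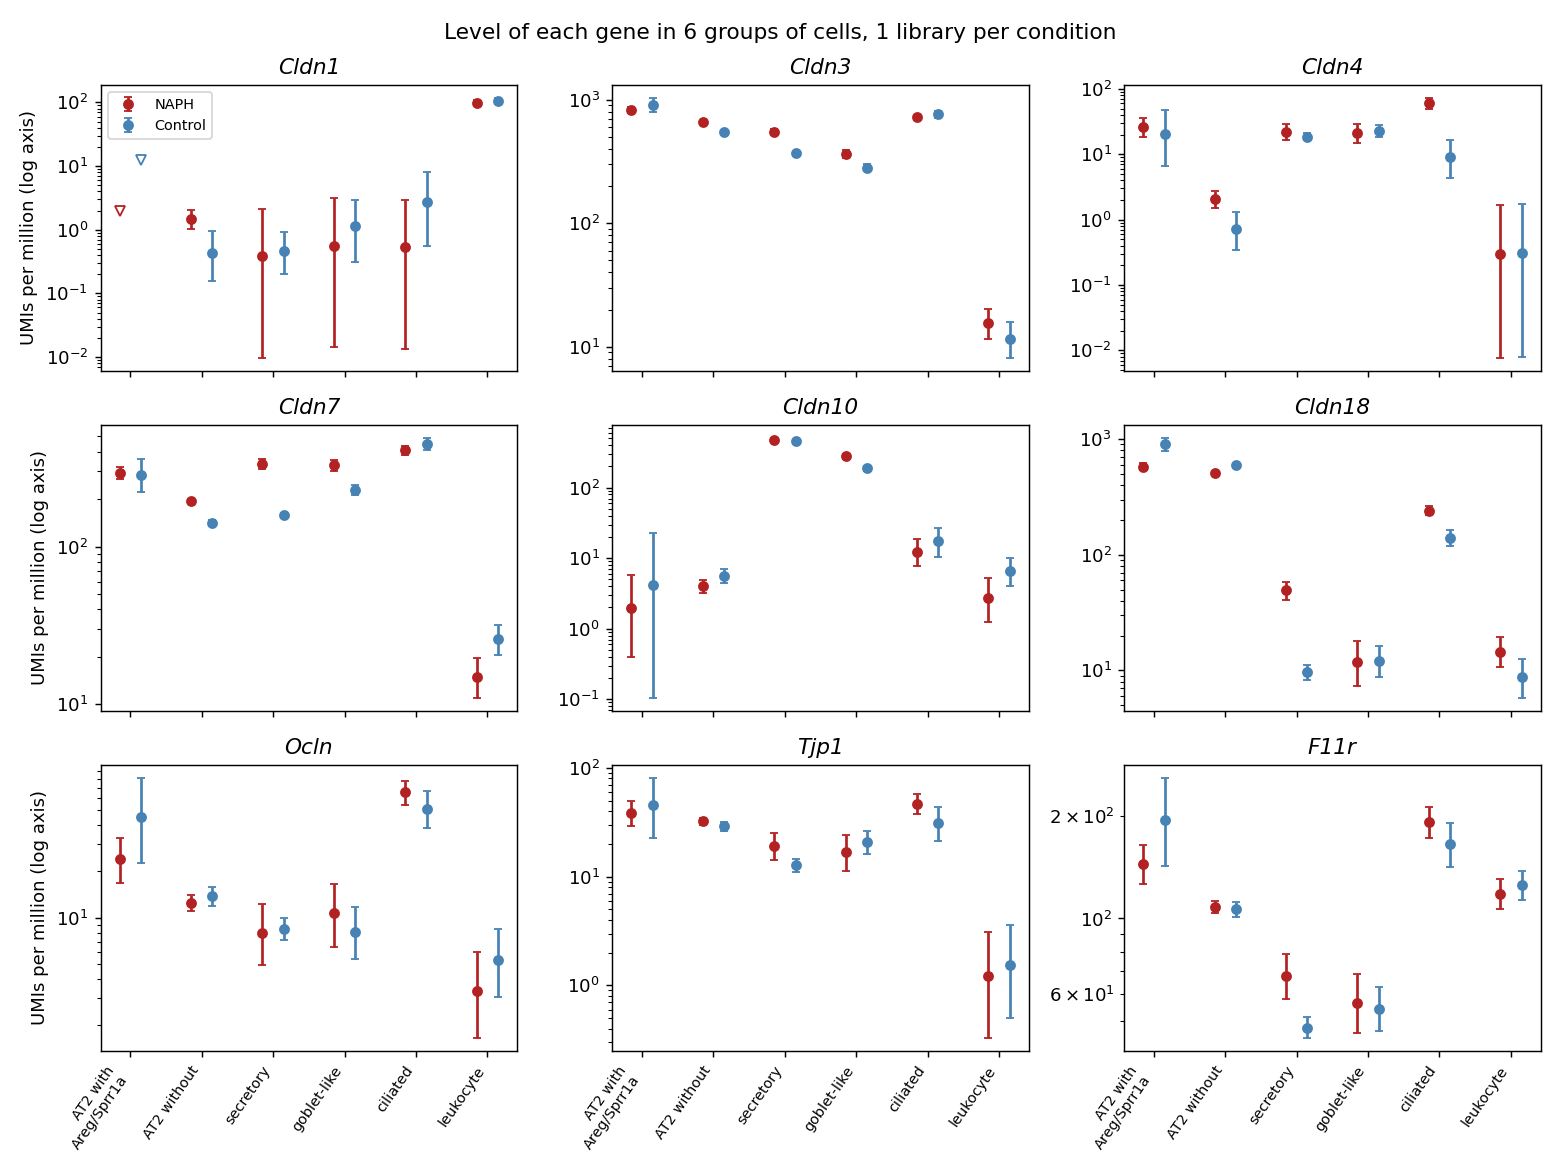
Level of each of the 9 genes (CPM, log axis) in 6 groups of cells, NAPH on the left in red and Control on the right in blue; bars are exact 95% Poisson intervals, and open triangles mark the level that 3 counts would give where no UMI was seen. Cldn10 is highest in secretory cells (481 CPM in NAPH, 453 CPM in Control), Cldn18 in AT2 cells, and Cldn1 in leukocytes (98.4 CPM in NAPH, 105.7 CPM in Control).

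Ocln, Tjp1 and F11r were present in every epithelial group. Ocln was highest in ciliated cells, at 65.2 CPM in NAPH and 51.0 CPM in Control, followed by the Areg/Sprr1a AT2 cells at 24.0 CPM in NAPH and 45.4 CPM in Control. In Control the intervals of these groups overlapped, on 11 UMIs in the Areg/Sprr1a AT2 cells. Without the marker genes of the gates the Control levels were 52.7 CPM in ciliated and 55.8 CPM in Areg/Sprr1a AT2 cells. Ocln lay between 8.0 and 12.4 CPM in the other 3 NAPH groups and between 8.08 and 13.8 CPM in the other 3 Control groups. Tjp1 ranged from 16.9 CPM in goblet-like cells to 47.0 CPM in ciliated cells in NAPH. In Control its range was 12.7 CPM in secretory cells to 45.4 CPM in Areg/Sprr1a AT2 cells. F11r ranged from 56.8 to 191 CPM in NAPH and from 48.0 to 194 CPM in Control. Leukocytes had 118 CPM in NAPH and 125 CPM in Control. AT2 cells outside the Areg/Sprr1a group had 108 CPM in NAPH and 106 CPM in Control, with overlapping intervals in NAPH. When the marker genes of the gates were left out of the UMIs, the order turned in both libraries. Leukocytes then had 119 CPM in NAPH and 127 CPM in Control, and those AT2 cells had 137 CPM in NAPH and 143 CPM in Control. The product of F11r is also known on leukocytes, where it takes part in their migration.

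These levels are shares of a group's UMIs, and the marker genes of the gates took 38.2% of UMIs in NAPH and 62.2% in Control secretory cells, against 2.02% in NAPH and 3.21% in Control ciliated cells. When levels were expressed as CPM of the remaining UMIs, an alternative chosen after seeing the data, 5 of the 9 genes kept the epithelial group with the highest mean of both libraries. By that mean Cldn4 stood highest in secretory cells (35.8 CPM in NAPH, 49.3 CPM in Control). Within a library it was higher in ciliated cells in NAPH (61.7 CPM) and in goblet-like cells in Control (50.7 CPM). Cldn7 had its highest mean in goblet-like cells (537 CPM in NAPH, 510 CPM in Control), next to 540 CPM in NAPH secretory cells. The highest mean of F11r was in the Areg/Sprr1a AT2 cells (174 CPM in NAPH, 239 CPM in Control), although NAPH ciliated cells had 195 CPM. Cldn1 had at most 8 UMIs in any airway group. Cldn3, Cldn10, Cldn18, Ocln and Tjp1 kept theirs. Cldn10 is itself among the 6 secretory markers summed below, which are Scgb1a1, Scgb3a2, Cyp2f2, Cldn10, Gabrp and Aldh1a1.

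Cldn1, the sealing claudin of skin and many epithelia, was close to absent from the epithelial groups. It had 34 UMIs in 26 of 2345 NAPH AT2 cells outside the Areg/Sprr1a group and 6 UMIs in 4 of 1763 Control cells. No UMI was seen in 154 NAPH or 27 Control Areg/Sprr1a AT2 cells, and 3 counts would have given 1.95 CPM in NAPH and 12.4 CPM in Control. Leukocytes had 98.4 CPM in NAPH and 105.7 CPM in Control, with a UMI in 183 of 413 NAPH cells and 198 of 392 Control cells. Most of the Cldn1 signal in the tables therefore lay outside the epithelium.

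Within the leukocytes, subsets drawn after these values were seen differed in Cldn1. Cells with at least 2 UMIs per 10000 of Xcr1 and Clec9a, genes of conventional dendritic cells, had 129 CPM in NAPH (81 cells) and 147 CPM in Control (134 cells). Cells with at least 4 of Cd209a and Mgl2, genes of myeloid dendritic cells and macrophages, had 94.6 CPM in NAPH (201 cells) and 76.4 CPM in Control (95 cells). Cells with at least 20 of Chil3, Marco and Ear2, genes of alveolar macrophages, had 53.2 CPM in NAPH (50 cells) and 40.4 CPM in Control (94 cells). Claudin-1 and claudin-7 are known proteins of langerin-bearing dendritic cells of mouse airways. The Xcr1/Clec9a cells also held Cd207, the langerin gene, at 166 CPM in NAPH and 180 CPM in Control, and Cldn7 at 31.0 CPM in NAPH and 41.3 CPM in Control. In the Cd209a/Mgl2 cells Cd207 was at 3.84 CPM in NAPH and 110 CPM in Control, and Cldn7 at 7.67 CPM in NAPH and 25.0 CPM in Control. The subsets were drawn by separate rules, so a cell could enter more than 1 of them. F11r had its highest leukocyte level in the Chil3/Marco/Ear2 cells, at 285 CPM in NAPH and 207 CPM in Control. Epcam was detected in all 3 subsets, at 140 to 196 CPM in NAPH and 175 to 345 CPM in Control.

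NAPH was then set against Control within each group of cells, to see which junction genes differed after injury. Ratios were divided by the median ratio of all genes with at least 20 UMIs in both libraries together. That median stood at a log2 value of 0.67 in secretory and 0.41 in goblet-like cells, 0.10 or less in the other groups. A ratio of at least 1.5 in either direction is reported as past the fold. It is a rule of size and not a test.

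In ciliated cells 2 of the 8 members with enough UMIs were higher past the fold, Cldn4 and Cldn18, where 16.1% of all genes were higher. Cldn4 had 113 UMIs in 69 of 198 NAPH ciliated cells, against 10 UMIs in 9 of 187 Control ciliated cells. The ratio was 6.20 (interval 3.25 to 13.3), and no cell held more than 5 of the NAPH UMIs. With every cell thinned to 3500 UMIs, 16.7% of NAPH cells and 2.14% of Control cells kept a Cldn4 UMI. Before thinning the median depth was 7947 UMIs in NAPH and 5314 UMIs in Control ciliated cells, with a Cldn4 UMI in 34.9% of NAPH and 4.81% of Control cells. In leukocytes 0.242% of NAPH and 0.255% of Control cells had one.

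Cldn18 had 450 UMIs in 117 of 198 NAPH ciliated cells and 153 UMIs in 56 of 187 Control ciliated cells, a ratio of 1.61 (1.34 to 1.95). With ambiguous cells kept in both gates the ratio was 1.47, just under the fold. The share of cells with a UMI was 59.1% in NAPH and 29.9% in Control ciliated cells, and 11.1% in NAPH and 7.14% in Control leukocytes. Thinned to 3500 UMIs, the shares were 45.5% in NAPH and 24.6% in Control ciliated cells, and 5.08% in NAPH and 2.55% in Control leukocytes. Cldn10 was the only member lower past the fold, at a ratio of 0.664 (0.346 to 1.29) on 23 NAPH and 19 Control UMIs, where 9.9% of all genes were lower. With gate thresholds halved its ratio was 0.750. Ocln (1.20), Tjp1 (1.42) and F11r (1.09) stayed within the fold, as did Cldn3 (0.882) and Cldn7 (0.850). In the same cells the 4 general epithelial markers Epcam, Cdh1, Krt8 and Krt18 summed to 2600 CPM in NAPH and 1654 CPM in Control. The 9 AT2 markers summed to 8909 CPM in NAPH and 3838 CPM in Control, the 6 secretory markers to 13722 CPM in NAPH and 26767 CPM in Control, and the 6 goblet markers to 837 CPM in NAPH and 219 CPM in Control. The AT1 markers summed to 492 CPM in NAPH and 364 CPM in Control, with 7 of 9 detected in each. The part of these differences in the Cldn4 and Cldn18 ratios was not tested.

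Cldn18 in ciliated cells was set against RNA that may reach droplets from AT2 cells. Sftpc stood at 5722 CPM in NAPH and 2596 CPM in Control ciliated cells. If Cldn18 had come with it in the ratio seen in AT2 cells, its level would have been 13.9 CPM in NAPH and 6.43 CPM in Control. The measured levels were 17.2 times as high in NAPH and 21.7 times as high in Control. In leukocytes the same comparison gave 1.36 times in NAPH and 1.70 times in Control, and in goblet-like cells 1.11 times in NAPH and 1.76 times in Control. Cldn10 in ciliated cells was 1.06 times in NAPH and 0.975 times in Control the level scaled from secretory cells by Scgb1a1.

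**Figure D2:**
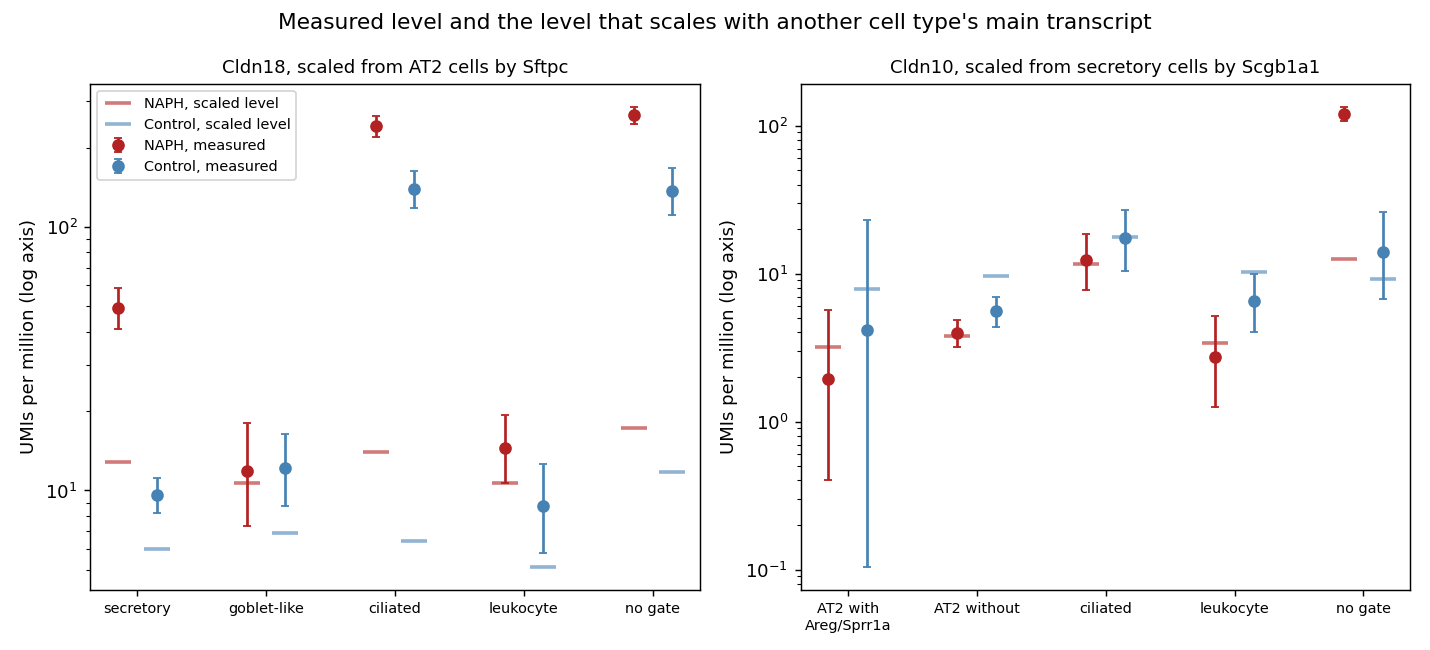
Measured levels of Cldn18 and Cldn10 (points, CPM on a log axis, bars are exact 95% Poisson intervals) beside the level each would have if it came with Sftpc from AT2 cells or with Scgb1a1 from secretory cells (dashes), NAPH left in red and Control right in blue. Ciliated Cldn18 lies at 17.2 times its dash in NAPH and 21.7 times in Control, and Cldn10 of ciliated cells lies on it.

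In secretory cells Cldn18 was the only member higher past the fold, where 13.8% of all genes were higher. It had 129 UMIs in 55 of 121 NAPH cells and 166 UMIs in 119 of 613 Control cells, a ratio of 3.22 (2.54 to 4.08). The NAPH level was 3.82 times and the Control level 1.60 times the one scaled from AT2 cells by Sftpc. Thinned to 3500 UMIs, 18.2% of NAPH cells and 3.75% of Control cells kept a UMI. The median depth of these cells was 20903 UMIs in NAPH and 30152 UMIs in Control, and unthinned shares were 45.5% in NAPH and 19.4% in Control. Markers of alveolar cells moved in the same cells. All 9 AT1 markers were detected in both libraries and summed to 1716 CPM in NAPH and 363 CPM in Control, with Ager at 922 CPM in NAPH and 109 CPM in Control and Hopx at 17.1 CPM in NAPH and 15.98 CPM in Control. The 9 AT2 markers summed to 26089 CPM in NAPH and 9893 CPM in Control. Their part in the Cldn18 ratio was not tested.

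Ocln was lower past the fold in secretory cells, at 0.592 (0.356 to 0.939) on 21 NAPH and 147 Control UMIs, where 14.7% of all genes were lower. Cldn10 lay at 0.669 (0.629 to 0.710), just inside the fold. Its plain CPM ratio was 1.06, because the median gene of these cells was itself higher in NAPH. Cldn7 had a ratio of 1.34 (1.24 to 1.44), and 2.12 in plain CPM. Plain CPM thus put 2 members higher and 0 lower in secretory cells, with Ocln at 0.940. Cldn3 (0.938), F11r (0.890), Tjp1 (0.942) and Cldn4 (0.746) stayed within the fold in the main scaling.

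In goblet-like cells 0 members were higher past the fold, where 12.5% of all genes were. Tjp1 was lower at 0.611 (0.385 to 0.948) on 30 NAPH and 72 Control UMIs, where 14.7% of all genes were lower, and its ratio was 0.833 with gate thresholds doubled. The other 7 members with at least 20 UMIs ranged from 0.687 for Cldn4 to 1.11 for Cldn10. Every goblet-like cell of Control and 65 of the 72 of NAPH also passed the secretory gate.

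In the AT2 cells outside the Areg/Sprr1a group, Cldn4 and Cldn1 were higher past the fold, where 8.15% of all genes were higher, and 0 members were lower, where 8.32% were. Cldn4 had 48 UMIs in 35 of 2345 NAPH cells and 10 UMIs in 10 of 1763 Control cells, a ratio of 2.71 (1.36 to 6.01). Cldn1 gave a ratio of 3.20 (1.33 to 9.33) on its 34 NAPH and 6 Control UMIs, and both genes stayed under 2.1 CPM. Without doublet removal the Cldn1 ratio was 1.75, and leukocytes held Cldn1 at 98.4 CPM in NAPH and 105.7 CPM in Control, whose part in the ratio was not tested. With cells thinned to 3500 UMIs, 0 members counted as higher, since neither gene kept 20 UMIs. Cldn10 lay just inside the lower fold at 0.675 (0.493 to 0.926) on 92 NAPH and 77 Control UMIs. The abundant claudins differed by less, on counts that fix them closely. Cldn18 was at 0.801 (0.779 to 0.824), Cldn3 at 1.14 (1.10 to 1.17) and Cldn7 at 1.29 (1.23 to 1.37). Ocln (0.849), Tjp1 (1.05) and F11r (0.953) had intervals that reached 1.

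Among Areg/Sprr1a AT2 cells 0 members were higher past the fold, where 21.4% of all genes were, and 2 of 7 were lower, where 17.3% were. Cldn18 had 891 UMIs in 149 of 154 NAPH cells and 218 UMIs in 27 of 27 Control cells, a ratio of 0.628 (0.541 to 0.731), and of 0.707 with gate thresholds halved. Ocln had 37 NAPH and 11 Control UMIs, a ratio of 0.517 (0.258 to 1.12), and of 0.783 with thresholds halved. The Control side of this comparison rests on 27 cells and 242316 UMIs.

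**Figure D3:**
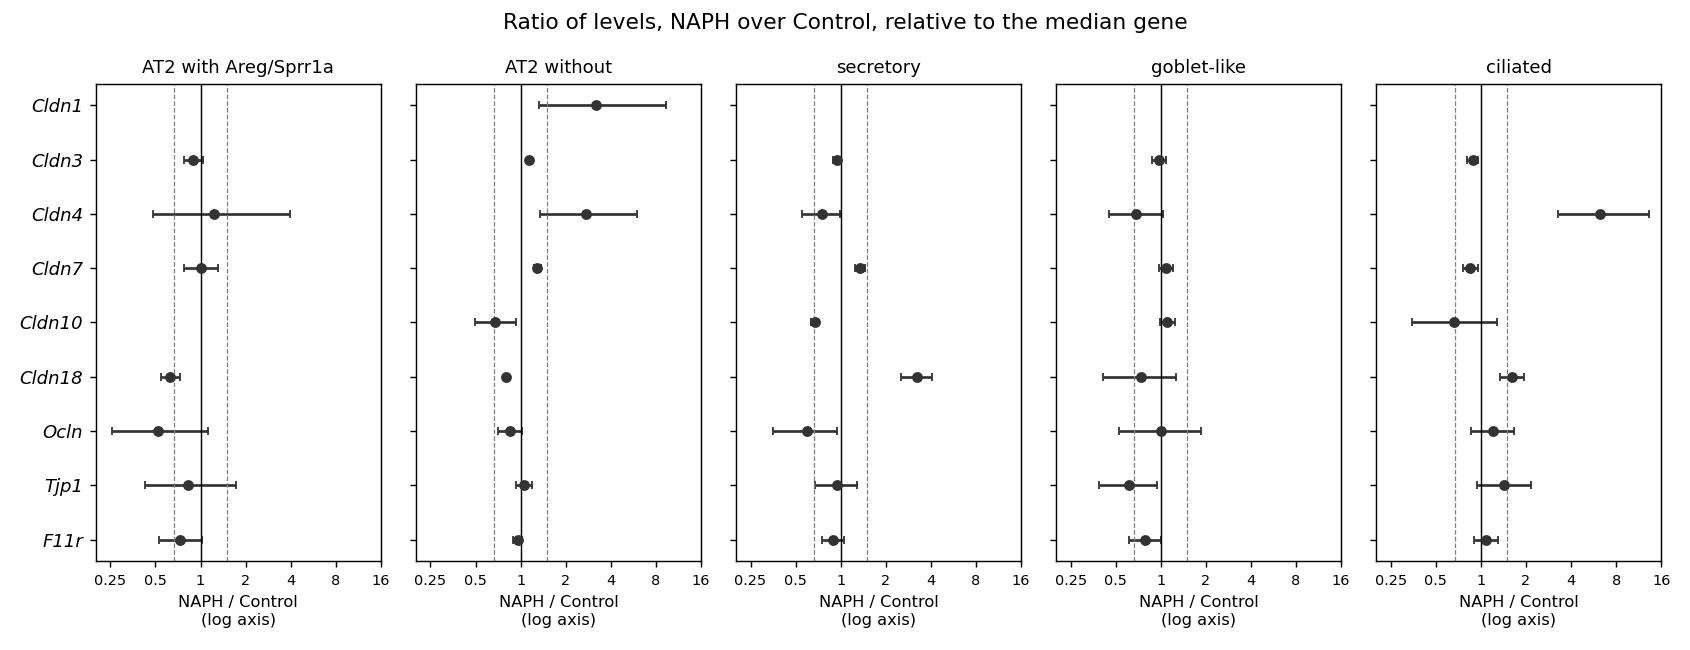
Ratio of each gene's level, NAPH over Control, divided by the median ratio of all genes (log axis), in 5 groups of cells; bars are exact 95% intervals from counts, dashed lines mark the 1.5-fold, and genes with under 20 UMIs are left out. Cldn4 in ciliated cells (6.20) and Cldn18 in secretory cells (3.22) lie farthest to the right with intervals clear of the fold.

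The second comparison was within a library, between AT2 cells with at least 5 Areg and Sprr1a UMIs per 10000 and the AT2 cells below that. In NAPH, Cldn4 had 40 UMIs in 18 of 154 Areg/Sprr1a cells, against 48 UMIs in 35 of 2345 other cells, a ratio of 11.8 (7.56 to 18.4). Of those 18 cells, 12 held 1 UMI and 6 held 2 or more, with 9 UMIs in 1 cell. The interval covers counting error only and leaves out this unevenness between cells. Ocln had a ratio of 1.83 (1.26 to 2.58). These 2 were the members higher past the fold, where 11.7% of all genes were higher. Cldn7 (1.43), F11r (1.26), Cldn3 (1.19), Tjp1 (1.12) and Cldn18 (1.08) lay above 1 but within the fold. Cldn1 and Cldn10 counted as lower, where 14.1% of all genes were, on 0 and 3 UMIs in the Areg/Sprr1a cells. For Cldn1 the level that 3 counts would give, 1.95 CPM, lay above the 1.47 CPM of the other AT2 cells, so a difference was not detectable at this depth.

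In Control, 4 of 7 members were higher past the fold, where 23.8% of all genes were, and 0 were lower, where 29.5% were. They were Ocln at 2.98 (1.46 to 5.45), Cldn7 at 1.83 (1.42 to 2.33), F11r at 1.65 (1.20 to 2.20) and Cldn3 at 1.502 (1.31 to 1.72). Cldn4 had 5 UMIs in 3 of 27 Areg/Sprr1a cells and 10 UMIs in 10 of 1763 others, too few for the rule. Cldn18 had a ratio of 1.36 (1.18 to 1.56). The ratio of Ocln, on 11 UMIs in the Areg/Sprr1a cells, was 1.67 with gate thresholds halved and 6.50 with thresholds doubled. The ratio of Cldn3 was 1.30 under another scaling (TMM), and those of Cldn7 and F11r were 1.41 with thinned cells and 1.01 with gate thresholds doubled. The median gene stood at a log2 value of 0.15 here and of 0.08 in NAPH. The split itself was not sharp: 82 NAPH and 16 Control AT2 cells had an Areg and Sprr1a sum from 4 to under 6. The AT1 markers summed to 2523 CPM in NAPH and 3004 CPM in Control Areg/Sprr1a cells, and to 2174 CPM in NAPH and 1790 CPM in Control other AT2 cells, while Rtkn2 was at 0 in both Areg/Sprr1a groups. The part of this in the ratios was not tested.

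Finer bins of the NAPH AT2 cells showed where Cldn4 lay. Its level was 1.19 CPM in 1618 cells with no Areg or Sprr1a UMI, 3.76 CPM in 727 cells with under 5 per 10000, 4.80 CPM in 83 cells with 5 to under 10, 8.91 CPM in 45 cells with 10 to under 20 and 124 CPM in 26 cells with 20 or more. Of the 40 UMIs in the Areg/Sprr1a group, 32 came from the last bin. Over the same bins Cldn7 had 179, 221, 239, 296 and 460 CPM, and F11r had 105, 113, 109, 174 and 205 CPM. Cldn18 had 511, 504, 503, 630 and 731 CPM, and Cldn3 had 622, 729, 844, 820 and 789 CPM, with its highest value in the middle bin. In Control the bins from 5 upward held 17, 8 and 2 cells, and Cldn4 had 2, 3 and 0 UMIs there.

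**Figure D4:**
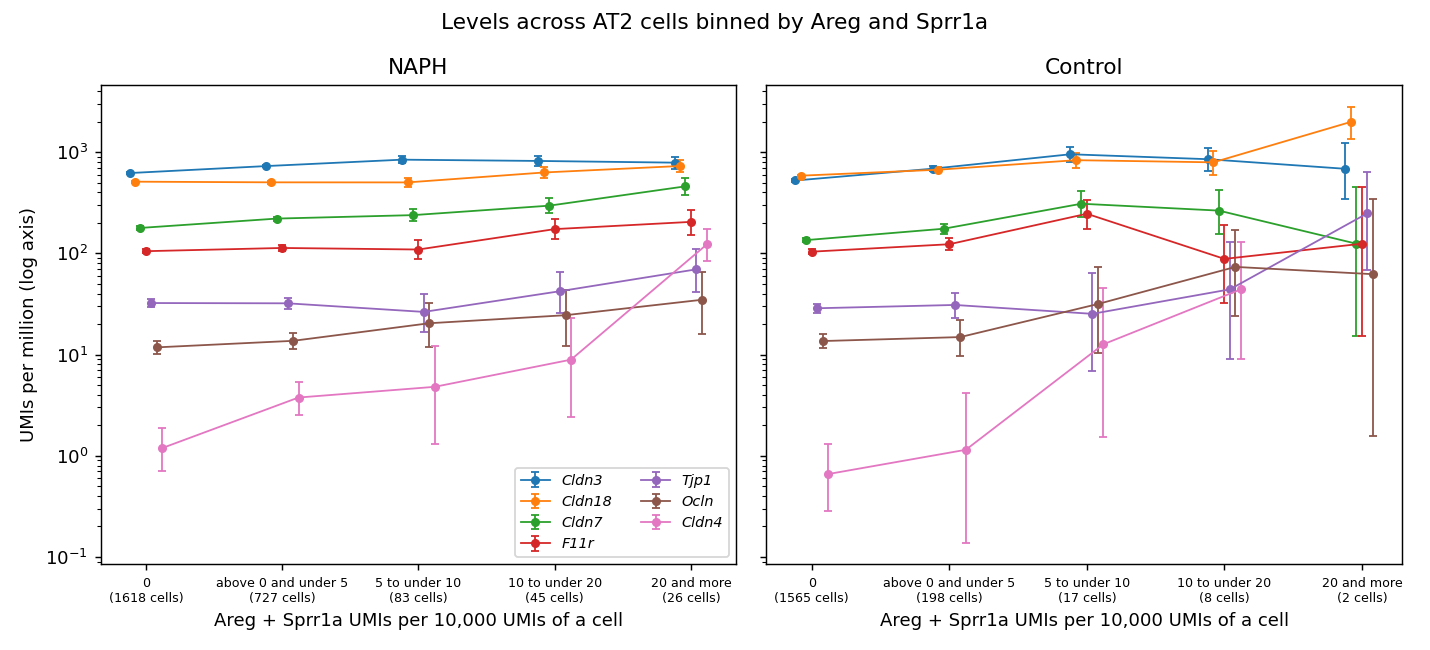
Levels of 7 genes (CPM, log axis) in AT2 cells binned by their Areg and Sprr1a UMIs per 10000, NAPH left and Control right; bars are exact 95% Poisson intervals and bins with no UMI of a gene are left out. In NAPH the Cldn4 level is 1.19 CPM in the first bin and 124 CPM in the last, while Cldn18 goes no further than 503 to 731 CPM.

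Cldn3 and Cldn4 are neighbouring genes on mouse chromosome 5 with opposite orientation, and their starts lie 39.3 kb apart in GRCm38 (Cldn3 at chr5:134986214-134987472 on the plus strand, Cldn4 at chr5:134945119-134946934 on the minus strand, GENCODE vM21). Where Cldn4 was past the fold, Cldn3 had ratios of 0.882 in ciliated cells, 1.14 in AT2 cells outside the Areg/Sprr1a group and 1.19 between the AT2 groups of NAPH. The 250 bases before the start of each are shown with those of Cldn18 (gene at chr9:99689461-99717267, minus strand), which was past the fold in 3 of the cell groups. They are from RefSeq on GRCm38.p6, 5′ to 3′ on the strand of the gene. All 9 members are in that table, and Cldn18 has 2 starts there, of which the upstream one is shown, and counts of 3′ ends do not tell which start is used. Capitals mark matches on either strand to AP-1 (TGANTCA) or SP1 (GGGCGG), which did not overlap. Windows are chr5:134985964-134986213 (plus) for Cldn3, chr5:134946935-134947184 (minus) for Cldn4 and chr9:99717268-99717517 (minus) for Cldn18.
Cldn3: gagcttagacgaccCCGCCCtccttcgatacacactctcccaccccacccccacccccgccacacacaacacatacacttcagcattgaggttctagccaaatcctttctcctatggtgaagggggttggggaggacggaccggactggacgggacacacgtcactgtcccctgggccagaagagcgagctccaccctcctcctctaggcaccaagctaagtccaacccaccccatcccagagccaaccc
Cldn4: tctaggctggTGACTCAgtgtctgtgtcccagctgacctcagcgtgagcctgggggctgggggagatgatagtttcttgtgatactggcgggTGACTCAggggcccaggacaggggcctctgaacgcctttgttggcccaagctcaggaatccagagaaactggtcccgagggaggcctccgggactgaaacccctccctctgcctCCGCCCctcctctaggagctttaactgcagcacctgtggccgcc
Cldn18: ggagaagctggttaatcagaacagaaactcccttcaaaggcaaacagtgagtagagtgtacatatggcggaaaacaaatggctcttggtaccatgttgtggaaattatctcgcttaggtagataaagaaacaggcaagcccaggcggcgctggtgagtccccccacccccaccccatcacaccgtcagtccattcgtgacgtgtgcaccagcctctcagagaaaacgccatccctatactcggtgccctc

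The Cldn4 window held 2 AP-1 matches, starting 240 and 158 bases before the gene start, and 1 SP1 match. The Cldn3 window held 1 SP1 match, and the Cldn18 window held none of either. Of 32841 promoter windows of this length, 6.75% had at least 1 AP-1 match, 0.338% had at least 2, and 32.8% had an SP1 match. Searches for GRHL (ACCGGT), NKX2-1 (CACTTG) and TEAD (GGAATG) gave no match in the 3 windows, where 1.86%, 11.6% and 12.6% of all windows had one. A match is a run of letters and was not tested for binding.

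The genes whose levels most resembled each member were ranked by Pearson's r of log2(CPM + 10) over the 10 sums of 5 epithelial groups in 2 libraries, among 1986 abundant genes. The 5 groups of a library share its depth and free RNA, so r is a description. Cldn18 was closest to Anxa6 (0.988), Grb14 (0.986) and Col4a1 (0.983), and Cldn10 to Plpp3 (0.986), Lrrc26 (0.977) and Gsta3 (0.963). Cldn4 was closest to the keratin gene Krt19 (0.823), Ffar4 (0.796) and F3 (0.769). F11r was closest to Rbpms (0.994), Cldn3 to Drap1 (0.979), Cldn7 to Taf10 (0.979), Ocln to Rtn4 (0.979) and Tjp1 to Brd2 (0.975). The best value for Cldn1 was 0.718 (M6pr), at levels of at most 2.73 CPM.

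Other junction genes, from lists drawn up with earlier results of these data known, gave the setting for the members. Of 17 other claudin genes in the tables, 2 to 7 reached 20 UMIs in a comparison. Some were seen mostly in NAPH airway cells and are named after their values were seen. Cldn2, which encodes a pore-forming claudin, had 28 UMIs in 13 of 72 NAPH goblet-like cells and 0 UMIs in 138 Control goblet-like cells, where 3 counts would have given 0.866 CPM against 15.7 CPM in NAPH. It had 31 UMIs in 19 of 198 NAPH ciliated cells and 3 UMIs in 3 of 187 Control ciliated cells. Cldn11, known from myelin and testis, had 32 UMIs in 15 NAPH goblet-like cells and 0 UMIs in Control goblet-like cells, and 25 UMIs in 10 NAPH and 5 UMIs in 2 Control secretory cells. Leukocytes had no UMI of either gene. Cldn22 in goblet-like cells, with the opposite direction, had 41 NAPH and 185 Control UMIs, a ratio of 0.325 (0.226 to 0.458). Cldnd1, a claudin domain gene, stayed within the fold in AT2 and ciliated cells (0.942 to 1.02).

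Of 28 other tight junction genes measured in ciliated cells, 7 were higher and 3 lower past the fold, where 16.1% of all genes were higher and 9.9% lower. Cxadr, a cell adhesion molecule of the junction, had 194 UMIs in NAPH and 51 in Control, a ratio of 2.09 (1.53 to 2.90). Cgnl1, which encodes paracingulin, stood at 2.24 (1.17 to 4.63), and the polarity gene Pard6a at 0.488 (0.310 to 0.764). In secretory cells, where 13.8% of all genes were higher and 14.7% lower, 3 of 28 were higher and 2 lower, with Cxadr at 1.92 (1.60 to 2.29). In goblet-like cells, where 12.5% of all genes were higher and 14.7% lower, 2 of 25 were higher and 6 lower, among them the cingulin gene Cgn at 0.563 (0.406 to 0.771) and the polarity kinase gene Prkci at 0.343 (0.193 to 0.579). In AT2 cells outside the Areg/Sprr1a group 0 of 27 passed the fold in either direction, where 8.15% of all genes were higher and 8.32% lower. In Areg/Sprr1a AT2 cells 6 of 23 were higher and 5 lower, close to the shares of all genes (21.4% higher, 17.3% lower). The medians of this list, as log2 ratios relative to the median gene, were 0.28 in ciliated, 0.03 in secretory, -0.30 in goblet-like, 0.00 in these AT2 cells and 0.06 in Areg/Sprr1a AT2 cells.

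Adherens junction and desmosome genes past the fold lay in 1 direction between the AT2 groups of NAPH. There 8 of 20 were higher and 0 lower in Areg/Sprr1a cells than in the other AT2 cells, where 11.7% and 14.1% of all genes were, and their median log2 ratio was 0.33. Perp, a desmosome-associated membrane protein gene, had a ratio of 2.03 (1.56 to 2.60). Vcl, for the actin linker vinculin, had 1.98 (1.52 to 2.55), and Ppl, for periplakin, had 1.97 (1.55 to 2.47). In Control 8 of 20 were higher and 4 lower in the same comparison, on the 27 Areg/Sprr1a cells, where 23.8% of all genes were higher and 29.5% lower. Between libraries, 3 of 18 were higher and 0 lower in ciliated cells (16.1% and 9.9% of all genes), led by the desmoglein gene Dsg2 at 2.45 (1.59 to 3.90). In goblet-like cells 2 of 21 were higher and 6 lower (12.5% and 14.7% of all genes), with Epcam at 1.84 (1.59 to 2.13) and the desmoplakin gene Dsp at 0.546 (0.352 to 0.828).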

How the data were processed

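Droplet libraries of 1 NAPH and 1 Control sample were deposited as matrices of raw UMI counts per gene and cell barcode, which the authors made with Cell Ranger on mm10, per the submitters' processing notes; no version is given in the sources used here. Barcodes with at least 500 genes, at least 1000 UMIs and at most 20% mitochondrial UMIs were kept, which removed 4 NAPH and 0 Control barcodes of 3685 and 3298. Scrublet (scanpy 1.11.5) set to its automatic threshold marked 0.0815% of NAPH and 0.2426% of Control barcodes, too few to have worked, so the highest scores at the expected rate were removed instead, 109 in NAPH and 87 in Control. The NAPH library held 38497783 UMIs and the Control library 41699755. The libraries shared 14 barcodes, which were kept. UMIs were summed per group of cells and library in Python 3.11.15 (numpy 2.4.6, scipy 1.17.1, pandas 2.3.3), with exact Poisson intervals for levels, exact conditional intervals for ratios and exact binomial (Clopper-Pearson) intervals for shares. The calculation of ratios and intervals was checked on simulated Poisson counts with known ratios. Those counts hold counting error only, so the check says nothing about variation between cells, animals or libraries. Cells passing several gates were left out, except that goblet-like cells also in the secretory gate counted as goblet-like. Alternatives covered scaling (with edgeR 4.0.16 in R 4.3.3 for TMM factors), gates, doublets, depth, the minimum of 20 UMIs and the fold.

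All 9 members are described. Of 3 other junction lists, up to 3 highest and 3 lowest ratios per comparison were eligible to be named, among genes with at least 30 UMIs on both sides together and at least 20 CPM on 1 side; likeness was Pearson's r of log2(CPM + 10) among genes with at least 100 CPM in 1 sum and 500 UMIs. Members, gates and lists were chosen with earlier results of these data known. The subsets of leukocytes, ungated cells, secretory cells and ciliated cells were chosen after their values were seen. Gene positions came from GENCODE vM21 on GRCm38, where 28416 of 28692 gene IDs matched, and promoters from RefSeq.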

Additional observations from a re-analysis of the deposited data

Results flagged for a closer look

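Cldn18 differed between NAPH and Control in opposite directions by cell group, and the difference between the groups was not tested, since there is 1 library per condition. The NAPH over Control ratio was 0.628 in Areg/Sprr1a AT2 cells, 3.22 in secretory cells and 1.61 in ciliated cells.

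Cells that passed no gate and lay under the minimum of the leukocyte markers, 252 in NAPH and 80 in Control, entered none of the comparisons. In plain CPM their NAPH over Control ratio was 8.51 for Cldn10 (119.9 CPM in NAPH, 14.1 CPM in Control), 8.11 for Cldn4 (57.1 CPM in NAPH, 7.04 CPM in Control) and 3.59 for Cldn3 (359 CPM in NAPH, 99.99 CPM in Control). It was 2.44 for Cldn7 (295 CPM in NAPH, 121 CPM in Control) and 1.94 for Cldn18 (265 CPM in NAPH, 137 CPM in Control). These were flagged because their intervals began at 1.5 or more, a rule that finds higher ratios only. Cldn1 was lower, at 0.368 (0.264 to 0.516; 34.2 CPM in NAPH, 92.9 CPM in Control). Tjp1 had 2.36 (1.13 to 5.69), Ocln 2.14 (0.911 to 6.15) and F11r 1.12 (0.874 to 1.44). The makeup of these cells differed: 53 NAPH and 2 Control cells had at least 10 UMIs of Ager, Hopx and Rtkn2 per 10000. The leukocyte markers, though under the minimum in each cell, summed to 576 CPM in NAPH and 1231 CPM in Control. The part of this makeup in the ratios was not tested.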

How the results depend on the processing

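No paired analysis was possible because each condition has 1 library and the labels give no replicate numbers. For the same reason leaving out a replicate was not possible. Counts of members past the fold are small, and each moves when 1 gene crosses it. In plain CPM, secretory cells had 2 higher and 0 lower, and goblet-like and ciliated cells had 0 lower each. Tjp1 in ciliated cells (1.52) and Cldn7 between the NAPH AT2 groups (1.52) were then also higher past the fold. So were Cldn18 (1.51) and Tjp1 (1.57) between the Control AT2 groups. With TMM scaling, 1 was lower in Areg/Sprr1a AT2 cells, 2 in secretory and 0 in ciliated cells, and between the Control AT2 groups 2 were higher and 1 lower. Without the 20 top genes and the gate genes, 0 were lower in ciliated cells and 1 between the Control AT2 groups. With the mean of CPM per cell, 1 was lower in the AT2 cells outside the Areg/Sprr1a group and 2 in secretory cells. With overlapping gates kept, 0 were lower in goblet-like cells, 1 was higher and 0 lower in ciliated cells, and 1 was lower between the Control AT2 groups. With gate thresholds doubled, 1 was higher in Areg/Sprr1a AT2 cells, 0 were lower in goblet-like cells, 5 were higher between the NAPH AT2 groups and 1 was lower between the Control AT2 groups. With thresholds halved, 2 were higher and 0 lower in Areg/Sprr1a AT2 cells, 0 were lower in ciliated cells and between the NAPH AT2 groups, and 2 were higher and 1 lower between the Control AT2 groups. There the Cldn10 ratio of Areg/Sprr1a over other AT2 cells in NAPH turned to 1.70, against 0.462 on 3 UMIs. Without doublet removal, 0 were lower in ciliated cells and 1 between the NAPH AT2 groups. With cells of at least the lowest Control total, 2 were lower in goblet-like and 0 in ciliated cells. With cells thinned to 3500 UMIs, 0 were higher and 1 lower in the AT2 cells outside the Areg/Sprr1a group, 1 was lower in Areg/Sprr1a AT2 cells, 4 in secretory, 0 in goblet-like and 0 in ciliated cells, and 1 between the AT2 groups of each library. With no minimum of UMIs, 2 were lower in secretory, goblet-like and ciliated cells each, and 1 between the Control AT2 groups. Cldn10 then also counted as lower in Areg/Sprr1a AT2 cells, at 0.461 on 3 NAPH and 1 Control UMIs. Cldn4 also counted as higher between the Control AT2 groups, at 25.8 (6.93 to 83.0) on 5 and 10 UMIs. At a fold of 2, 0 were lower in Areg/Sprr1a AT2, secretory, goblet-like and ciliated cells, 1 was higher in ciliated cells, and 1 was higher between the AT2 groups of each library. Of the 9 members, 8 kept their highest epithelial group with the mean of CPM per cell, with thresholds doubled, with thresholds halved and with thinned cells, and 5 kept it without the gate genes. The causes were not tested. Cldn4 in ciliated cells had ratios of 6.20 to 9.0, Cldn18 in secretory cells 2.54 to 5.11 and Cldn4 between the NAPH AT2 groups 8.81 to 24.1 over all settings that gave a ratio. Depth limits Cldn1, Cldn4, Cldn10 and Ocln in the groups where they had few UMIs.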

Other observations

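Ciliated cells were divided by whether they held a Cldn18 UMI, 117 with and 81 without in NAPH, and 56 with and 131 without in Control. Their summed ciliated marker levels were 11780 CPM in cells with Cldn18 and 11444 CPM in cells without in NAPH, and 15837 CPM with and 15833 CPM without in Control. Sftpc was at 5815 CPM with and 5617 CPM without in NAPH and at 2621 CPM with and 2585 CPM without in Control, and the 9 AT1 markers summed to 574 CPM with and 401 CPM without in NAPH, and to 424 CPM with and 338 CPM without in Control. The part of the AT1 markers was not tested. Median depth was lower with Cldn18 than without in both libraries (7521 and 8489 UMIs in NAPH, 5220 and 5370 UMIs in Control). Of 5101 genes measured in both libraries, 29 were at least 2 times as high in cells with Cldn18 in each. Ccnd2, a cyclin gene, stood at 418 CPM with and 26.0 CPM without in NAPH, and at 274 CPM with and 50.9 CPM without in Control. Igfbp2, an insulin-like growth factor binding protein gene, had ratios of 5.07 in NAPH and 4.93 in Control, Sncg of 4.71 in NAPH and 4.70 in Control, and Esm1 of 6.47 in NAPH and 3.57 in Control. The cells were chosen by Cldn18 in the same libraries, so these values describe them and were not tested.

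Among cells in no gate, the 53 NAPH cells with at least 10 UMIs of Ager, Hopx and Rtkn2 per 10000 had 949 CPM of Cldn18, 941 CPM of Cldn3, 539 CPM of Cldn7, 320 CPM of Cldn10 and 148 CPM of Cldn4. In NAPH, 16 cells had at least 5 of Areg and Sprr1a without passing the Sftpc gate. They had 1336 CPM of Cldn18 and 319 CPM of Cldn4, which was found in 10 of the 16, and 5.59 CPM of Cldn10. The 2 subsets were drawn by separate rules and shared cells. They held 584 and 239 UMIs of Cldn18, where all 252 NAPH cells in no gate held 658. Cells with at least 10 of the keratins Krt5, Krt14 and Krt15 numbered 16 in NAPH and 9 in Control and had Cldn7 at 336 CPM in NAPH and 198 CPM in Control.

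Secretory NAPH cells with a UMI of Upk3a, a uroplakin gene, numbered 61 and had 28.1 CPM of Cldn4 and 38.5 CPM of Cldn18. The 60 without it had 13.7 CPM of Cldn4 and 64.0 CPM of Cldn18. For Cldn4 the NAPH intervals overlapped (20.3 to 37.8 with Upk3a, 7.68 to 22.6 without). For Cldn18 they were just apart (29.3 to 49.7 with, 49.9 to 80.9 without). In Control, 44 cells with Upk3a had 14.6 CPM of Cldn4 and 10.7 CPM of Cldn18. The 569 Control cells without it had 19.0 CPM of Cldn4 and 9.52 CPM of Cldn18. These values lie the other way, but the Control intervals overlapped, so a reversal was not shown.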
